A study of Mus musculus with 56 samples.

Results

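The genes described here code for the coat of the hepatic lipid droplet and for the handling of fatty acids around it. They are the perilipins Plin2, Plin4 and Plin5, the CIDE proteins Cidea, Cideb and Cidec, the triglyceride lipase gene Pnpla2 with the gene of its inhibitor G0s2, the fatty acid translocase gene Cd36 and the liver fatty acid binding protein gene Fabp1. The members were chosen by name, as the first listed transcript of each of these 10 genes, out of 23813 genes in the expression table. All 10 genes were found in the table, and 9 of them were abundant enough to be tested in each comparison, the exception being Cidea.

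Polyadenylated RNA from livers of male mice was sequenced in 12 libraries, with 4 biological replicates in each of 3 groups. Hypothyroid WT mice received PTU, a drug that blocks the synthesis of thyroid hormone, together with a low iodine diet. Hyperthyroid WT mice received the same PTU diet and were injected with the hormone T3 on the last days before the liver was taken. Hypothyroid L-NCOR1ΔID mice, labelled NCORdeltaID, received PTU and expressed in the liver a form of the corepressor NCOR1 without the interaction domains that bind the thyroid hormone receptor (TR). All 3 groups therefore shared the PTU treatment. The study's animal table covers more mice than were sequenced here and gives a lower mean age for L-NCOR1ΔID than for either WT group, so that age and genotype cannot be told apart. The mutant line was kept on a mixed strain background. The background of the WT mice used for RNA is not stated, so that a strain difference cannot be told apart from genotype either. The study names a pair of sequencer models and does not say which of them ran each library, so that sequencer and group cannot be told apart. Values are RPKM, reads scaled by transcript length and by the number of mapped reads. Per-sample read totals were not used here, and depth relative to the first hypothyroid WT library was estimated from the smallest steps between values. It ranged from 0.931 to 1.221 in hypothyroid WT, from 0.681 to 0.834 in hyperthyroid WT and from 1.217 to 1.364 in L-NCOR1ΔID. Every hyperthyroid library was thus shallower than every hypothyroid library, so that depth and T3 cannot be told apart, which matters most for genes near 0.

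A lipid droplet is a store of triglyceride and cholesteryl ester enclosed by a single layer of phospholipid, and in hepatocytes its size follows the balance between fatty acid supply, esterification, lipolysis and secretion. Perilipins sit on the droplet surface and limit or direct the access of lipases, and CIDE proteins pass lipid from smaller to larger droplets and, for CIDEB, onto lipoprotein particles. PNPLA2, also called adipose triglyceride lipase, removes the first fatty acid from triglyceride, ABHD5 activates it, G0S2 inhibits it and PLIN5 can hold either partner at the droplet. Many of these genes are known targets of PPARα, a nuclear receptor activated by fatty acids that binds DNA together with RXR.

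Hyperthyroid WT livers were compared with hypothyroid WT livers to ask which of these genes respond to T3. Plin2, Plin5 and Pnpla2 rose by 2.29-fold, 2.07-fold and 2.06-fold, and no other member passed the threshold, which asked for an adjusted p under 0.01 (limma, Benjamini-Hochberg over all genes tested) together with a log2 difference larger than 1 in either direction. Thus, 3 of 9 members tested were higher, beside 8.28% of all genes tested, and 0 were lower, beside 3.47% of all genes tested. At an unadjusted p under 0.05 in limma, 7 of the 9 passed in either direction, as did 7877 of 13941 genes. All libraries of the T3 group lay above all controls for 3 members, beside 35.8% of genes, and below all controls for 3 others, beside 10.8%. The median log2 fold change of the 9 members was 0.08 and that of all genes 0.23, so that a typical gene had a higher RPKM after T3. After scaling each library by the median of its gene ratios, that shift fell to 0.01, the log2 fold changes became 0.96 for Plin2, 0.81 for Plin5 and 0.81 for Pnpla2, and 0 members passed as higher, while the adjusted p stayed at 0.0028 or below for these 3 genes. Under this scaling 1 member passed as lower, G0s2.

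Hypothyroid L-NCOR1ΔID livers were compared with hypothyroid WT livers to ask what the loss of these NCOR1 domains does under PTU. The study also found less of the histone deacetylase HDAC3 at a number of sites without TR in this mutant. It proposed that the domains may matter for regulators other than TR, so a mutant difference need not go through TR. For every count of genes in this comparison, and in the direct contrast below, the threshold was an adjusted p under 0.01 without a size limit. These counts therefore do not share the threshold of the T3 counts above. By limma 0 of 9 members were higher, beside 0.725% of all genes tested, and 0 were lower, beside 0.544%. At an unadjusted p under 0.05, 3 members passed, namely Cideb, Fabp1 and Pnpla2, as did 2831 of 13790 genes. Since both comparisons use the same hypothyroid WT libraries, hyperthyroid WT was also set directly against hypothyroid L-NCOR1ΔID, which tests whether the T3 effect and the mutant effect differ. In that contrast Plin2 was higher, 1 of 9 members beside 15.5% of all genes tested, and 0 were lower, beside 5.7%. At an unadjusted p under 0.05 in limma, 3 members passed, namely Plin2, Pnpla2 and G0s2, as did 6783 of 14017 genes.

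**Figure D1:**
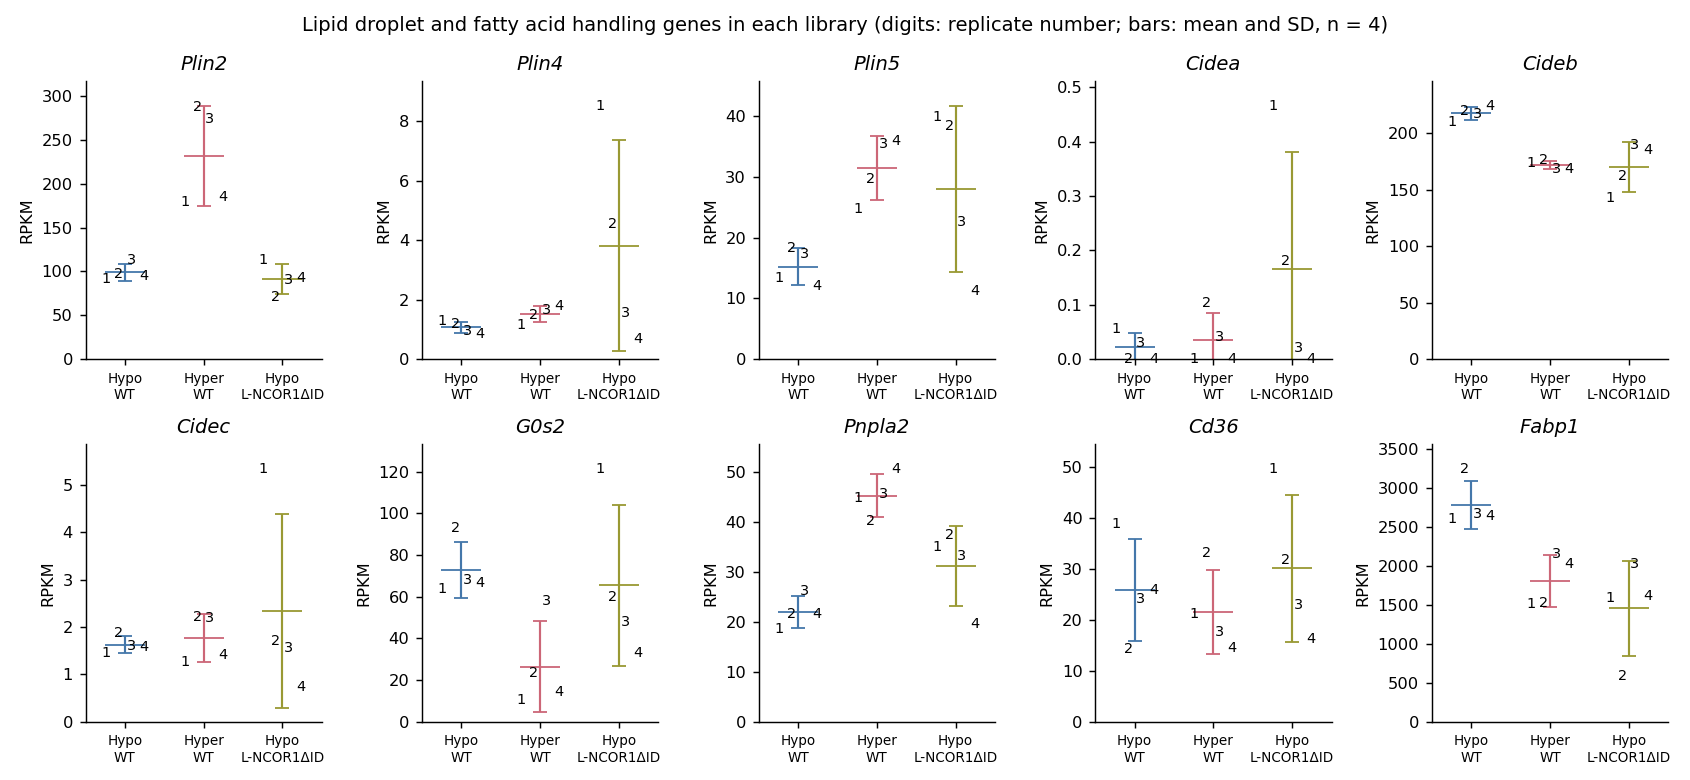
RPKM of the 10 genes in each of the 12 libraries, 1 panel per gene with its own axis from 0; digits are replicate numbers, and bars give the mean and SD of 4 libraries. Plin2 was between 180 and 287 RPKM in the T3 libraries and at most 113 RPKM in the other 8. On the log2 scale the L-NCOR1ΔID libraries spread more widely than either WT group for Plin4, Plin5, Cidec and Fabp1. G0s2 spread most in the T3 group, and Cd36 spread in all groups.

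**Figure D2:**
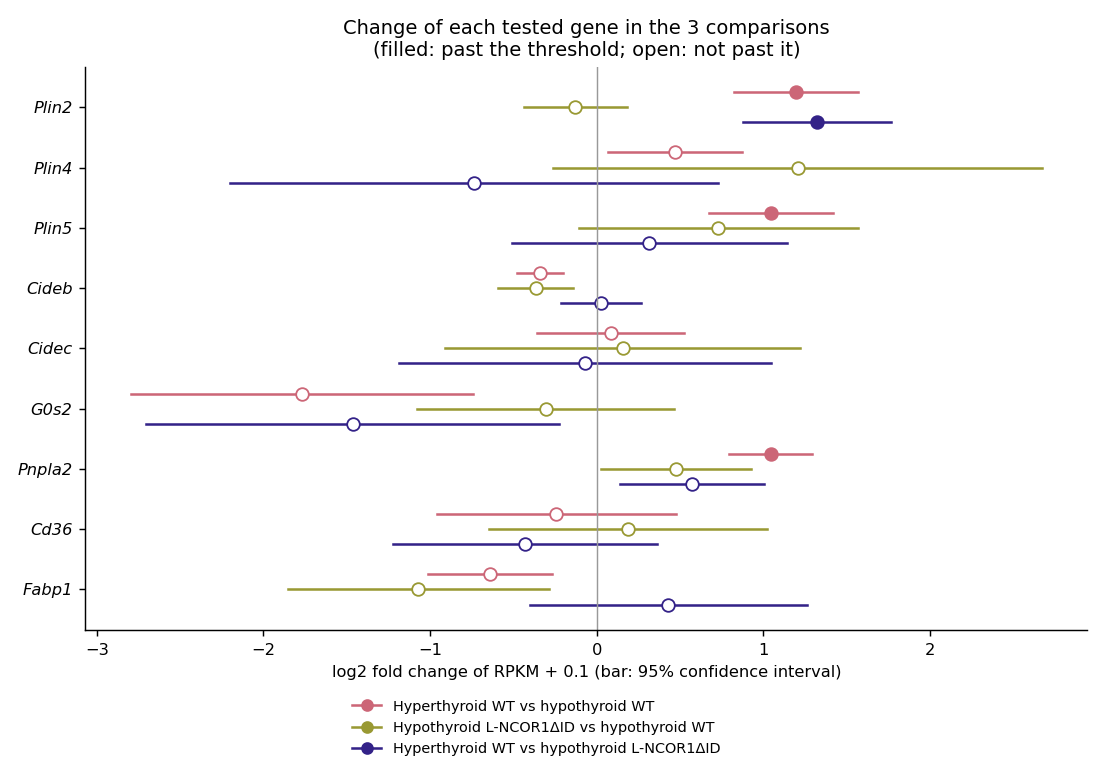
Log2 fold change of each of the 9 tested genes in the 3 comparisons, with the 95% confidence interval as a bar; filled points passed the threshold of that comparison. Filled points are those of Plin2, Plin5 and Pnpla2 for hyperthyroid against hypothyroid WT and of Plin2 for hyperthyroid WT against L-NCOR1ΔID.

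The deposited list of regions with acetylated histone H3 (H3K27Ac or H3K9Ac, merged over hypothyroid and hyperthyroid WT livers) gives the position of active regulatory DNA but no level. A region spanned the annotated start of 8 of the 10 genes, the exceptions being Cidea and the most upstream start of Cd36, and it spanned the start of 54.2% of 22238 protein-coding genes. Promoters of Plin2, Plin5 and Pnpla2, which passed the T3 threshold, of G0s2, which had the largest T3 difference in size, and of the abundant carrier gene Fabp1 are shown for the 250 bases before the annotated start (mm9, GENCODE M1), written 5′ to 3′ on the strand of the gene. Capitals mark an exact AGGTCA or its reverse complement TGACCT, the half-site shared by nuclear receptors such as TR and PPARα, which occurred in 12.6% of 22223 promoter windows of this length. All 5 windows lie within an acetylated region.
Plin2 (chr4:86315965-86316214, minus strand): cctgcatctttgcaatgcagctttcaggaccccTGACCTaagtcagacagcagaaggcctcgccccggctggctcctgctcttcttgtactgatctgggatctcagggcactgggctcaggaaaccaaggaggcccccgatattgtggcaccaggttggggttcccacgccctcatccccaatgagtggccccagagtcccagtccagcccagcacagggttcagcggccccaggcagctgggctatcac
Plin5 (chr17:56257020-56257269, minus strand): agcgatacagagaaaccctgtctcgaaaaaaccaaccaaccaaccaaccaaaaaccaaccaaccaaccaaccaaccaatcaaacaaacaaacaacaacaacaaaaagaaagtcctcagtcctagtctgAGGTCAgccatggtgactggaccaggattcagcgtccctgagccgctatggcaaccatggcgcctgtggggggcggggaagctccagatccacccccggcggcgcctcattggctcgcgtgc
Pnpla2 (chr7:148640847-148641096, plus strand): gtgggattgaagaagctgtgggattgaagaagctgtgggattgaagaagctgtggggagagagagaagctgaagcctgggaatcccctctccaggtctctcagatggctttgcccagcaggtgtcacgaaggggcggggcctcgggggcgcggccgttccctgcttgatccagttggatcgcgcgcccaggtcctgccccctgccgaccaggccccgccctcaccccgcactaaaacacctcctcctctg
G0s2 (chr1:195099383-195099632, minus strand): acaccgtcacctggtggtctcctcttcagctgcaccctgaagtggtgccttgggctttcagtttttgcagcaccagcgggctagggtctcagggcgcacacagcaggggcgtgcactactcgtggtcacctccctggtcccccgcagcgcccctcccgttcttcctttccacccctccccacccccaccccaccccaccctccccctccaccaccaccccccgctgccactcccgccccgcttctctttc
Fabp1 (chr6:71149571-71149820, plus strand): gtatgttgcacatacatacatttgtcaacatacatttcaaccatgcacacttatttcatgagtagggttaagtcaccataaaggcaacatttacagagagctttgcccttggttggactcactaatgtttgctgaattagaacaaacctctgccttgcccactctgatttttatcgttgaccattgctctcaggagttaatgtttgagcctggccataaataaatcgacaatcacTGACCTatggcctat
Plin2, Plin5 and Fabp1 each held 1 half-site in this window, and Pnpla2 and G0s2 held 0. The windows of Plin4, Cideb, Cidec and Cd36, which are not shown, also held 0. For Cd36 this window precedes the most upstream annotated start, and a RefSeq start lies 53063 bp downstream of it. The sequence before that RefSeq start was not searched, here or for the repeats below. The G0s2 window was the richest in G and C of the 5 shown (67.2%). A match is a description of the letters and does not show that a receptor binds there.

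Direct repeats of the half-site were searched on both strands from 2000 bp before to 2000 bp after each start, allowing mismatches. A repeat with 1 base between the half-sites, AGGTCANAGGTCA or DR1, is the arrangement preferred by PPARα with RXR, and a repeat with 4 bases, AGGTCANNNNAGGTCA or DR4, is that preferred by TR with RXR. At least 11 of the 12 half-site bases matched a DR1 in 6.96% of 22223 windows and a DR4 in 3.4%, and at least 10 matched in 42.7% and 34.5%. Among the 9 members searched, a DR1 with 11 matches was found at Fabp1 and at Pnpla2, and a DR4 with 11 matches at Pnpla2. These are shown with the best DR4 of Plin2 and Plin5, which had 10 matches, because these genes passed the T3 threshold; capitals mark the half-sites, and the letters follow the strand of the repeat.
DR1 of Fabp1 (chr6:71149806-71149818, minus strand): AGGCCAtAGGTCA
DR1 of Pnpla2 (chr7:148639526-148639538, minus strand): AGGTCAtAGGTCC
DR4 of Pnpla2 (chr7:148642179-148642194, plus strand): AGGTCAggcaAGGTGA
DR4 of Plin2 (chr4:86316354-86316369, minus strand): AAGTCCctacAGGTCA
DR4 of Plin5 (chr17:56257126-56257141, minus strand): AGGTCAgccaTGGTGA
The Fabp1 repeat begins at -15 bp from the annotated start and contains the half-site seen in its promoter. The Pnpla2 DR1 at -1571 bp lay outside, and its DR4 at 1082 bp inside, an acetylated region. The DR4 at -405 bp of Plin2 and at -122 bp of Plin5 were both within one. The best DR4 of Cideb, Cidec and G0s2 also had 10 matches and lay within an acetylated region, and none of these genes was called higher after T3. Repeats with 10 matches are common in windows of this size.

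Plin2 codes for perilipin 2, the main coat protein of droplets in hepatocytes. Plin2 had 91.5, 97.2, 113 and 94.7 RPKM in hypothyroid WT, 180, 287, 274 and 185 RPKM in hyperthyroid WT, and 113, 70.3, 90.4 and 92.9 RPKM in L-NCOR1ΔID livers. All T3 libraries lay above all others, while the mutant libraries overlapped with hypothyroid WT. The mean was 99.1 ± 9.56 RPKM (SD, n = 4) in hypothyroid WT, 232 ± 56.9 RPKM (SD, n = 4) after T3 and 91.6 ± 17.4 RPKM (SD, n = 4) in L-NCOR1ΔID. T3 raised Plin2 by 1.19 on the log2 scale (SE 0.16, adjusted p = 0.00046, limma), and the adjusted p was 0.0022 or below with each library left out in turn. In L-NCOR1ΔID the log2 difference was -0.13 with a 95% confidence interval from -0.44 to 0.18 (adjusted p = 0.64, limma). Against L-NCOR1ΔID the T3 group was higher by 1.32 on the log2 scale (SE 0.20, adjusted p = 0.0011, limma), so that for Plin2 the T3 effect exceeded the mutant effect. This difference was 1.13 (adjusted p = 0.0031, limma) after scaling by median ratios.

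Plin5 codes for the perilipin of oxidative tissues, which brings droplets and mitochondria together. Plin5 had 13.3, 18.3, 17.3 and 12.005 RPKM in hypothyroid WT, 24.7, 29.7, 35.4 and 35.9 RPKM in hyperthyroid WT, and 39.8, 38.4, 22.5 and 11.2 RPKM in L-NCOR1ΔID livers. The T3 libraries were all above the controls, whereas the mutant libraries ranged from below to far above them, with 3 above all controls and 1 below. T3 raised Plin5 by 1.05 on the log2 scale (SE 0.16, adjusted p = 0.00093, limma). That change sat at the size threshold, and without hypothyroid WT replicate 1 or 4 or hyperthyroid WT replicate 3 or 4 it was 0.94 to 0.99 and no longer passed. The mutant difference was 0.73 with a 95% confidence interval from -0.11 to 1.57 (adjusted p = 0.3, limma). The difference between T3 and L-NCOR1ΔID was 0.32 with an interval from -0.51 to 1.14 (adjusted p = 0.52, limma), so that it was not shown whether the T3 and mutant effects on Plin5 differ.

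Plin4, a perilipin best known from adipocytes and muscle, lies next to Plin5 on chromosome 17 in the same direction. The start sites are 7794 bp apart, both within 1 acetylated region of 18369 bp, and Plin4 was about an order of magnitude less abundant than Plin5 in hypothyroid WT livers on this per-kilobase scale. Plin4 had 1.28, 1.18, 0.94 and 0.857 RPKM in hypothyroid WT, 1.13, 1.49, 1.65 and 1.80 RPKM in hyperthyroid WT, and 8.503, 4.55, 1.54 and 0.658 RPKM in L-NCOR1ΔID livers. The mutant group held both the highest and the lowest value of the 12 libraries. The T3 difference was 0.47 on the log2 scale (SE 0.18, adjusted p = 0.052, limma) and the mutant difference 1.21 with a 95% confidence interval from -0.26 to 2.67 (adjusted p = 0.33, limma). With each library left out in turn the mutant difference ranged from 0.64, without L-NCOR1ΔID replicate 1, to 1.81, without replicate 4. The neighbours Plin4 and Plin5 were both high in L-NCOR1ΔID replicates 1 and 2 and both lowest among the mutants in replicate 4.

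Cideb codes for the CIDE protein of hepatocytes, which acts in the lipidation of very low density lipoprotein. Its values were the tightest of the members, with 210, 219, 217 and 224 RPKM in hypothyroid WT, 174, 176, 169 and 168 RPKM in hyperthyroid WT, and 143, 162, 190 and 185 RPKM in L-NCOR1ΔID livers. Both the T3 and the mutant libraries were all below the hypothyroid WT libraries. The T3 difference was -0.34 on the log2 scale (SE 0.06, adjusted p = 0.0019, limma), which passed the p threshold but not that of size. By adjusted p alone 3 of 9 members were higher, beside 24.5% of all genes tested, and Cideb was the 1 member lower, beside 7.71%. The mutant difference was -0.37 (SE 0.10, adjusted p = 0.076, limma). All libraries lay below all controls for 2 members in the mutant comparison, Cideb and Fabp1, beside 5.36% of genes, and above all controls for 0 members, beside 7.78%.

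Cidec, called Fsp27 in adipocytes, codes for a protein that drives droplet fusion and is induced in fatty liver. Cidec had 1.44, 1.87, 1.61 and 1.58 RPKM in hypothyroid WT, 1.26, 2.22, 2.20 and 1.41 RPKM in hyperthyroid WT, and 5.34, 1.71, 1.55 and 0.725 RPKM in L-NCOR1ΔID livers. The groups overlapped, and 1 mutant library was far above the rest. The T3 difference was 0.08 with a 95% confidence interval from -0.36 to 0.52 (adjusted p = 0.74, limma). The mutant difference was 0.16 with an interval from -0.91 to 1.22 (adjusted p = 0.89, limma), and without L-NCOR1ΔID replicate 1 it was -0.35.

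Cidea, a CIDE protein of brown fat that also appears in fatty liver, was close to the limit of detection. Cidea had 0.055, 0, 0.03 and 0 RPKM in hypothyroid WT, 0, 0.103, 0.04 and 0 RPKM in hyperthyroid WT, and 0.465, 0.181, 0.02 and 0 RPKM in L-NCOR1ΔID livers. The value of 1 read was estimated from the smallest steps between RPKM values, and by this estimate the first 2 mutant libraries held 22 and 8 reads and every other library 0 to 3. With so few reads the gene failed the filter on low values in all 3 comparisons. Without that filter the mutant difference was 0.81 (SE 0.51, adjusted p = 0.46, limma). Cidea is overlapped by a noncoding RNA gene on the opposite strand over 540 bp in 1 exon, and the strand used for counting is not given in the sources used here.

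Pnpla2 codes for the lipase itself. Pnpla2 had 18.6, 21.5, 26.2 and 21.5 RPKM in hypothyroid WT, 44.7, 40.1, 45.5 and 50.6 RPKM in hyperthyroid WT, and 34.9, 37.3, 33.1 and 19.5 RPKM in L-NCOR1ΔID livers. The T3 libraries lay above all others, and 3 of 4 mutant libraries lay between the controls and the T3 group. T3 raised Pnpla2 by 1.04 on the log2 scale (SE 0.11, adjusted p = 0.00011, limma). Without hypothyroid WT replicate 1 or hyperthyroid WT replicate 4 the change was 0.97 and 0.99, under the size threshold, with an adjusted p of 0.00044 or below. The mutant difference was 0.47 with a 95% confidence interval from 0.02 to 0.92 (adjusted p = 0.22, limma). The T3 group exceeded L-NCOR1ΔID by 0.57 (SE 0.19, adjusted p = 0.041, limma), short of the threshold. In that contrast all T3 libraries lay above all mutant libraries for 2 members, Plin2 and Pnpla2, beside 28.7% of genes, and below them for 0, beside 9.57%.

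G0s2 codes for the inhibitor of this lipase. G0s2 had 63.5, 93.0, 68.1 and 66.6 RPKM in hypothyroid WT, 10.2, 23.3, 58.1 and 14.1 RPKM in hyperthyroid WT, and 121, 59.7, 47.7 and 33.0 RPKM in L-NCOR1ΔID livers. All T3 libraries were below all controls, with replicate 3 close to them and the other 3 far lower. The T3 difference was -1.77 on the log2 scale (SE 0.46, adjusted p = 0.011, limma), the largest in size of the 9 members yet just short of the p threshold. It was past the threshold without hyperthyroid WT replicate 3, at -2.26 (adjusted p = 0.00044, limma), and after scaling by median ratios, at -2.01 (adjusted p = 0.006, limma). In L-NCOR1ΔID livers 3 of 4 libraries were below all controls and 1 above them, and the difference was -0.31 with a 95% confidence interval from -1.08 to 0.47 (adjusted p = 0.66, limma).

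The ratio of Pnpla2 to G0s2 within each library describes the lipase and its inhibitor together and does not depend on the scaling of a library. The ratio of RPKM was 0.293, 0.232, 0.385 and 0.322 in hypothyroid WT, 4.37, 1.72, 0.782 and 3.60 in hyperthyroid WT, and 0.287, 0.625, 0.695 and 0.591 in L-NCOR1ΔID livers. The T3 libraries had the 4 highest ratios, and 3 of 4 mutant libraries had ratios above all controls and below the T3 group. G0s2 was more abundant than Pnpla2 in all 8 hypothyroid libraries, and the reverse held in 3 of 4 hyperthyroid libraries. Abhd5, the gene of the activator of this lipase, had 7.66, 8.65, 8.18 and 7.52 RPKM in hypothyroid WT, 18.7, 17.4, 11.6 and 14.05 RPKM after T3, and 8.85, 7.42, 7.88 and 9.98 RPKM in L-NCOR1ΔID livers. Its T3 difference was 0.92 (SE 0.14, adjusted p = 0.00084, limma), under the size threshold, and it was higher after T3 than in L-NCOR1ΔID by 0.83 (SE 0.16, adjusted p = 0.0039, limma).

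**Figure D3:**
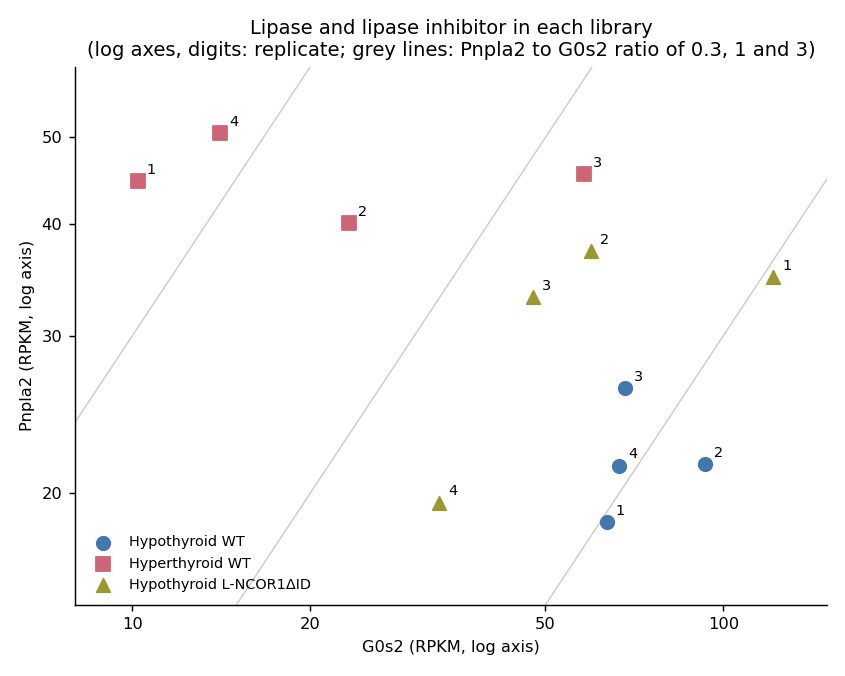
Pnpla2 against G0s2 in RPKM, both on log axes, 1 point per library with its replicate number and grey lines at ratios of 0.3, 1 and 3. The hypothyroid WT libraries lie near a ratio of 0.3, the hyperthyroid libraries between 0.782 and 4.37, and 3 L-NCOR1ΔID libraries between 0.591 and 0.695.

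Cd36 codes for a membrane protein that takes up long chain fatty acids and is also made by macrophages and endothelial cells. Cd36 had 38.7, 14.3, 24.1 and 25.8 RPKM in hypothyroid WT, 21.0, 33.1, 17.6 and 14.4 RPKM in hyperthyroid WT, and 49.5, 31.7, 22.9 and 16.2 RPKM in L-NCOR1ΔID livers. Each group varied by more than the groups differed. The T3 difference was -0.24 with a 95% confidence interval from -0.96 to 0.48 (adjusted p = 0.55, limma), and the mutant difference 0.19 with an interval from -0.65 to 1.02 (adjusted p = 0.82, limma). The table lists 5 transcripts of Cd36, 3 of Pnpla2 and 2 of Plin5, and their values differed from the first listed one by at most 0.104 on the log2 scale in any library.

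Fabp1 codes for the abundant cytosolic carrier of fatty acids in hepatocytes, a textbook target of PPARα. Fabp1 had 2594, 3242, 2664 and 2633 RPKM in hypothyroid WT, 1515, 1520, 2150 and 2019 RPKM in hyperthyroid WT, and 1587, 587, 2025 and 1612 RPKM in L-NCOR1ΔID livers. All libraries of both other groups were below all hypothyroid WT libraries. The T3 difference was -0.64 on the log2 scale (SE 0.17, adjusted p = 0.011, limma) and the mutant difference -1.07 (SE 0.35, adjusted p = 0.12, limma), and neither passed. Without L-NCOR1ΔID replicate 2 the mutant difference was -0.68. Hyperthyroid WT and L-NCOR1ΔID differed by 0.43 with a 95% confidence interval from -0.40 to 1.26 (adjusted p = 0.38, limma).

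The L-NCOR1ΔID livers differed from each other in these genes. The SD of log2 values was larger in L-NCOR1ΔID than in hypothyroid WT for 9 of the 9 members tested, beside 65% of all genes, and larger in the T3 group for 5 of 9, beside 61.5%. The SD of the log2 value in L-NCOR1ΔID reached 1.56 for Plin4 and 1.125 for Cidec, against 0.246 and 0.146 in hypothyroid WT, while the median over all genes was 0.205 and 0.16. For 6 of the 10 members, namely Plin4, Plin5, Cidea, Cidec, G0s2 and Cd36, mutant replicate 1 was the highest and replicate 4 the lowest, a pattern that 12.3% of all genes tested showed. This order was picked after the values of the members were seen, and Cidea was not among the genes tested. Over the 12 libraries the patterns of Plin4 and Cidea were near each other, with a root mean square difference of the centred log2 values of 0.43. Of the genes compared, which had a mean of at least 1 RPKM, 0.0281% were nearer to Plin4 than Cidea was. Cidea itself was below that mean, with few reads outside L-NCOR1ΔID replicates 1 and 2, so the likeness rests mainly on those libraries. For the nearest member of Cideb this share was 77.3%, and for that of Plin2 23%. These are descriptions over samples that share library and animal.

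Markers of other cells were measured in the same libraries, and their levels are given because bulk RNA cannot tell fewer cells of a type from less RNA per cell. Of the 10 adipocyte markers listed, 6 were picked for a sum (Adipoq, Plin1, Lep, Retn, Cfd and Ucp1). Their summed level ranged from 0 to 2.73 RPKM in hypothyroid WT, from 0.239 to 3.50 RPKM after T3 and from 0 to 4.17 RPKM in L-NCOR1ΔID. The range depends on this choice, which leaves out Fabp4, Lipe, Car3 and Adrb3. All 10 summed to 1944 to 2497 RPKM in hypothyroid WT, 478 to 749 RPKM after T3 and 183 to 733 RPKM in L-NCOR1ΔID, mostly from Car3. Adrb3 alone had 2.01 to 4.86 RPKM in hypothyroid WT. Adipoq, the gene of adiponectin, was at 0, 0, 0.028 and 0.425 RPKM in hypothyroid WT, 0, 1.13, 0.686 and 0 RPKM after T3, and 0.838, 0.213, 0.076 and 0 RPKM in L-NCOR1ΔID, and Ucp1 was at 0 in 10 of the 12 libraries. Within L-NCOR1ΔID, Adipoq, Plin1, Plin4 and Cidec were all highest in replicate 1 and lowest in replicate 4. Hyperthyroid replicate 2 had more Adipoq than L-NCOR1ΔID replicate 1, with Plin4 at 1.49 against 8.503 RPKM and Cidec at 2.22 against 5.34 RPKM. That is 1 chosen pair of libraries from different groups, and whether adipocytes add to these values was not tested. Over the whole list, 0 of 6 markers tested were higher and 2 lower after T3, Car3 by a log2 difference of -1.88 (adjusted p = 3.8e-05, limma) and Adrb3 by -1.99 (adjusted p = 0.0021, limma), and 0 of 5 passed in L-NCOR1ΔID livers, where 1 was higher and 2 lower at an unadjusted p under 0.05. Car3, a carbonic anhydrase that hepatocytes also express, was below all controls there, at -2.24 (adjusted p = 0.021, limma), and Fabp4, the fatty acid binding protein of adipocytes and macrophages, was at 0.89 (adjusted p = 0.098, limma). With the 5 libraries above 0.1 RPKM of Adipoq left out, a choice made after seeing the data, the mutant differences became -0.14 for Plin4, -0.02 for Plin5 and -0.57 for Cidec. The mutant libraries left out, replicates 1 and 2, were the highest of that group for Plin4, Plin5 and Cidec. Lower differences for these genes therefore followed from the cut, and the source of their values was not tested. In the same fit, the T3 differences were 0.86 for Plin2 (adjusted p = 0.0044, limma), 0.88 for Plin5 (adjusted p = 0.024, limma), 1.11 for Pnpla2 (adjusted p = 0.0054, limma) and -2.61 for G0s2 (adjusted p = 0.0015, limma), so that 1 member was higher and 1 lower. Only 2 mutant and 2 T3 libraries then remained.

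Kupffer cell and macrophage markers rose after T3 for 7 of the 7 in the table, with a summed level of 43.6 to 62.4 RPKM in hypothyroid WT, 138 to 227 RPKM after T3 and 48.3 to 132 RPKM in L-NCOR1ΔID livers, and none of the 7 was at 0. Of the endothelial markers 1 of 7 was higher after T3, and of the stellate cell markers 1 of 7. In L-NCOR1ΔID livers 0 markers of these 3 lists passed by limma, and at an unadjusted p under 0.05 there were 4 of 7 stellate, 2 of 7 Kupffer and 1 of 7 endothelial markers, all higher. The collagen genes of the stellate list had the highest value in mutant replicate 1 and the lowest in replicate 4, as the 6 members above did. Col1a1 had 6.08, 3.26, 1.42 and 0.866 RPKM in L-NCOR1ΔID livers, all above the 0.311 to 0.692 RPKM of hypothyroid WT, with a log2 difference of 2.01 (adjusted p = 0.071, limma), and Col3a1 had 15.6, 7.99, 3.89 and 2.14 RPKM, with a difference of 1.53 (adjusted p = 0.14, limma). Plin2 and Cd36 are also expressed by macrophages, and the part of these cells in the values above was not tested. Hepatocyte markers were the most abundant, with a summed level of 22870 to 60280 RPKM, and 3 of 8 fell after T3, among them Alb. Ncor1 had 14.1 to 15.6 RPKM in hypothyroid WT, 14.3 to 18.5 RPKM after T3 and 12.1 to 13.9 RPKM in L-NCOR1ΔID livers, a value for the whole transcript that does not check the deleted part.

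Other genes of the pathway were taken from lists and are described by their counts. Among 11 other droplet coat and biogenesis genes tested, 0 were higher and 3 lower after T3, with a median log2 fold change of 0.09. Hsd17b13 and Hsd17b11, dehydrogenases that reside on droplets, fell by 1.55 each (adjusted p = 5.3e-05 and 3.9e-06, limma), and Fitm1, a protein of droplet budding, fell by 1.596 (adjusted p = 0.00085, limma). Hsd17b13 went from 130 ± 15.1 RPKM (SD, n = 4) to 44.8 ± 8.37 RPKM (SD, n = 4), while the L-NCOR1ΔID libraries ranged from 105 to 338 RPKM. Plin3, the perilipin found in most tissues, had a T3 difference of 0.65 (adjusted p = 0.022, limma). Plin1, the perilipin of adipocytes, was at most 0.622 RPKM in any library. In L-NCOR1ΔID livers 0 of 11 passed by limma.

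Among 10 other lipolysis genes, 3 were higher and 3 lower after T3, with a median of -0.08. Pnpla3, a relative of Pnpla2 whose human variants are linked to fatty liver, went from 0.125 ± 0.0187 RPKM (SD, n = 4) to 9.31 ± 4.46 RPKM (SD, n = 4), a rise of 5.24 on the log2 scale (SE 0.35, adjusted p = 1.2e-05, limma). In L-NCOR1ΔID livers it had 2.26, 0.536, 10.05 and 5.66 RPKM, all above the controls, with a difference of 3.77 (SE 0.72, adjusted p = 0.022, limma) that did not pass. Ces1f and Ces1g, carboxylesterases that hydrolyse triglyceride or cholesteryl ester, fell by 3.03 and 2.31 (adjusted p = 7.5e-06 and 3.1e-05, limma). The carboxylesterase genes are close copies of each other, and how their shared reads were counted is not given in the sources used here. In L-NCOR1ΔID livers 0 of 10 passed by limma.

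Among 11 genes of triglyceride synthesis, 0 were higher and 2 lower after T3, namely Gpat4, an acyltransferase of the first step, at -1.22 (adjusted p = 0.00013, limma), and Lpin2, a phosphatidate phosphatase, at -1.01 (adjusted p = 0.003, limma). In L-NCOR1ΔID livers 0 of 11 passed by limma. Among 15 other genes of fatty acid uptake, binding and activation, 1 was higher and 3 lower after T3. Scp2, a sterol and lipid carrier, fell by 1.17, Acsl1, the main acyl-CoA synthetase of the liver, fell by 1.05, and Slc27a1, a fatty acid transporter, fell by 1.19 (adjusted p = 4.6e-05, 0.00012 and 0.00047, limma). In L-NCOR1ΔID livers 2 of 15 were higher and 0 lower. Fabp5, the epidermal relative of Fabp1, had 1.69, 2.41, 1.41 and 1.96 RPKM in hypothyroid WT against 21.7, 9.76, 38.0 and 31.9 RPKM in L-NCOR1ΔID livers, a rise of 3.55 (SE 0.38, adjusted p = 0.0016, limma). Dbi, the acyl-CoA binding protein, rose by 0.72 (SE 0.10, adjusted p = 0.0058, limma).

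Of 7 PPAR and CREB3L3 regulators, 1 was higher and 1 lower after T3. Ppard, the gene of PPARδ, rose by 2.51 (adjusted p = 2.8e-05, limma) and Pparg, the adipogenic receptor that drives Cidea and Cidec in fatty liver, fell by 1.35 (adjusted p = 0.00021, limma). Ppara itself differed by -0.23 after T3 (adjusted p = 0.11, limma) and by -0.17 in L-NCOR1ΔID livers (adjusted p = 0.59, limma). Creb3l3, a liver transcription factor of fasting, fell by 0.65 in L-NCOR1ΔID livers (SE 0.09, adjusted p = 0.0048, limma), the only regulator of the 7 that passed there. Of 12 known PPARα target genes outside the members, 1 was higher and 3 lower after T3. Acadm and Acot1, enzymes of fatty acid oxidation and acyl-CoA hydrolysis, fell by 1.27 and 3.26 (adjusted p = 3.4e-05 and 4.1e-05, limma; Acot1 has close copies, so its value is uncertain), and Pdk4, which restrains glucose oxidation, rose by 1.70 (adjusted p = 0.0067, limma). In L-NCOR1ΔID livers 1 of 12 was higher, Ehhadh of peroxisomal oxidation, which rose by 1.64 (SE 0.17, adjusted p = 0.0014, limma).

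**Figure D4:**
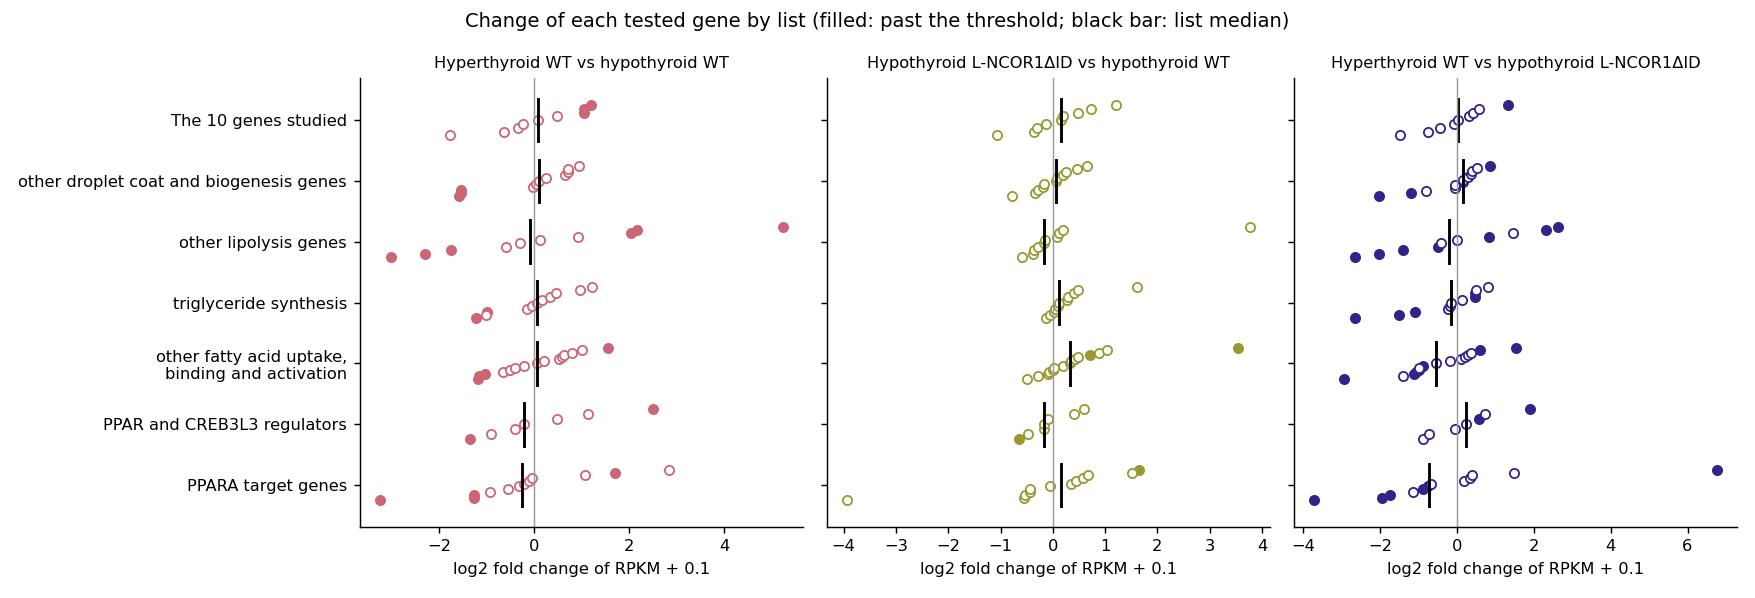
Log2 fold change of each tested gene by list, for hyperthyroid against hypothyroid WT (left), L-NCOR1ΔID against hypothyroid WT (middle) and hyperthyroid WT against L-NCOR1ΔID (right); filled points passed the threshold and black bars are list medians. List medians for T3 lay between -0.27 and 0.09, with single genes on both sides, and 4 filled points stand in the middle panel.

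The genes whose pattern over the 12 libraries was most like that of a member past the threshold were found by the root mean square difference of centred log2 values among 10662 other genes with a mean of at least 1 RPKM. For Plin2 these were Rsad1 at 0.166 and Atrn at 0.18, for Plin5 Slc25a51 at 0.224 and 1700017B05Rik at 0.294, and for Pnpla2 Pim2 at 0.172 and Tns1 at 0.173. The 5% of genes most like each member had differences up to 0.362, 0.489 and 0.317. Likeness here is a description over shared libraries.

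Acetylated regions were counted within 100 kb of each annotated start. The members had 8 to 16 regions with a median of 11.5, and the median over all protein-coding genes was 5. Only 54.2% of those genes had a region over their start, and the counts were not compared with those of genes active in liver. The neighbours Plin4 and Plin5 shared 15 of their 16 regions each, and 104 distinct regions lay near the 10 genes. At Fabp1 the region over the start was 26206 bp long, at Cidec 19692 bp, at Plin4 and Plin5 a shared 18369 bp, at Pnpla2 15820 bp, at Plin2 10506 bp, at G0s2 9483 bp and at Cideb 9151 bp, whereas the median of all 37200 regions was 2537 bp. That median includes regions away from gene starts, and the lengths were not compared with those of other regions over a start. Cidea, on chromosome 18, had no region within 18413 bp of its start, and its transcript was at or near 0 in 10 of 12 libraries. Cd36 had no region at its most upstream start, but a region covered 2 of its 3 annotated starts, and 8 regions lay within the gene. The list holds positions of regions found in any of the WT conditions, so that a change of acetylation with T3 was not measured here.

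**Figure D5:**
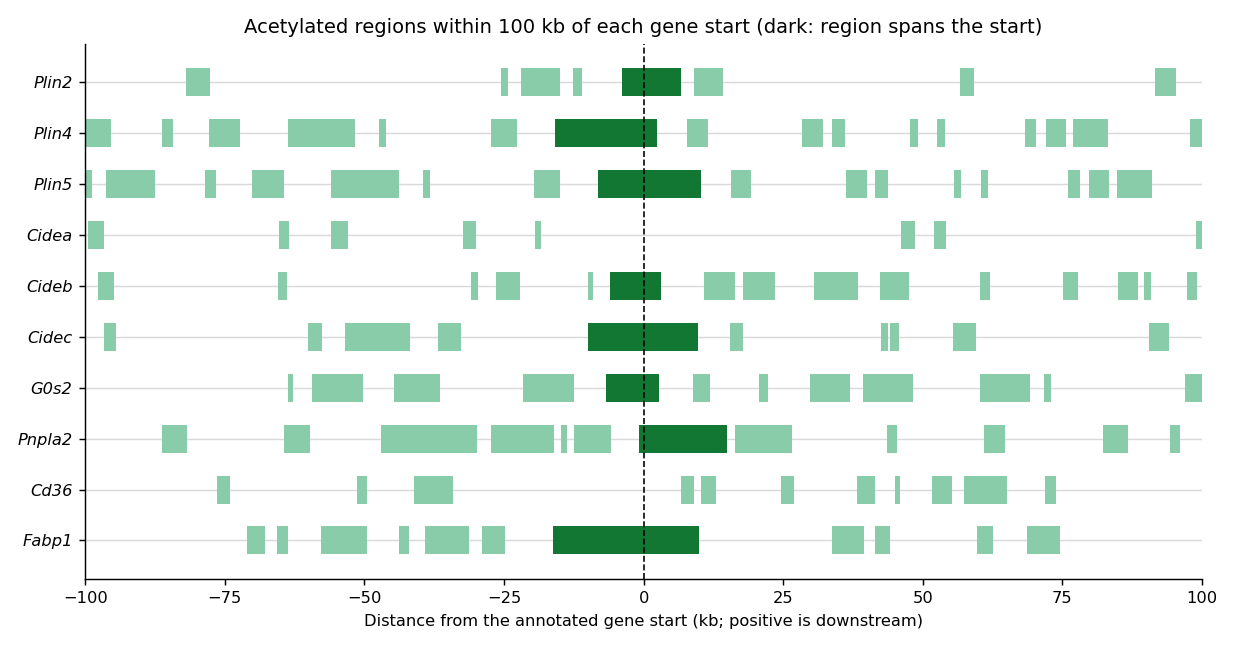
Acetylated regions within 100 kb of the annotated start of each gene; the x axis is the distance from the start in kb in the direction of transcription, each bar is 1 region drawn to scale, and dark bars span the start. A dark bar is present for 8 of the 10 genes and absent for Cidea and for the most upstream start of Cd36.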

How the data were processed

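RNA was measured in 12 liver libraries. The authors aligned the reads with STAR to mm9, quantified transcripts with HOMER and deposited RPKM values, and they ran DESeq2 on their own data. RPKM values are not counts, so a log scale model was used here. The first listed transcript of each gene was taken, 1 row without a gene name was left out, and a gene was kept for a comparison where 4 or more of its libraries reached 0.1 RPKM. Log2(RPKM + 0.1) was tested with limma 3.58.1 (R 4.3.3, variance trend), using only the groups compared, with Benjamini-Hochberg adjustment. On this scale the change of low genes is understated. The script was tested on simulated data. The members and lists were chosen with earlier results of these data known, and no set test was run. All members are named, and from each other list up to 3 genes with the smallest adjusted p past the threshold in the T3 or the mutant comparison, plus fixed partners: Abhd5, Plin1, Plin3, Ppara, Pparg, Creb3l3, Hsd17b13 and Ncor1. The acetylated region list was deposited without levels. Sequences and starts were read from mm9 with GENCODE M1. Alternatives were other pseudocounts, filters, scalings, fits and transcripts, and each library left out.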

Additional observations from a re-analysis of the deposited data

Results flagged for a closer look

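In 2 of 30 groups of 4 libraries examined for the members, 1 library stood apart from the other 3, with the ratio of its gap to the group's range (0.844 for G0s2 and 0.892 for Fabp1) above Dixon's 95% critical value. Chance does this in about 1 in 20 groups. Both concerned hypothyroid WT replicate 2, in which G0s2 had 92.967 RPKM while the other 3 had 63.5 to 68.1 RPKM, and Fabp1 had 3242 RPKM while the other 3 had 2594 to 2664 RPKM. Without this library the T3 difference of G0s2 was -1.65 (adjusted p = 0.03, limma) and the mutant difference of Fabp1 was -0.99 (adjusted p = 0.27, limma).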

How the results depend on the processing

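After T3, 575 genes were higher and 319 lower with a pseudocount of 1 RPKM, against 1155 and 484. With scaling by median ratios 746 genes and 0 members were higher, the higher share of calls was 52.4% instead of 70.5%, and Cidec was at -0.14. By adjusted p alone 3413 genes were higher and 1075 lower. With genes under a mean of 1 RPKM dropped, a single fit of all 12 libraries, scaling by median ratios, or an adjusted p under 0.05, 1 member was lower, G0s2, and by adjusted p alone the 1 lower member was Cideb. In the fit of all 12 libraries Plin5 missed the threshold (adjusted p = 0.021, limma). With single libraries left out, 1 to 3 members were higher and 0 to 1 lower, and Cidec ranged from -0.0326 to 0.22.

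In L-NCOR1ΔID livers, 100 genes were higher and 75 lower. In the fit of all 12 libraries 118 were lower, without a variance trend 63 were higher, and with an adjusted p under 0.05 344 were higher and 257 lower. With single libraries left out, 36 to 110 were higher and 28 to 77 lower, Cidec ranged from -0.35 to 0.56 and Cd36 from -0.0898 to 0.44. Hyperthyroid WT against L-NCOR1ΔID gave 1048 higher and 1293 lower after scaling by median ratios, with 44.8% instead of 73.1% of calls higher and Cideb at -0.17, and 3995 and 1412 with an adjusted p under 0.05, when 2 members were higher. With single libraries left out 1182 to 1905 were higher and 469 to 767 lower, and Cidec ranged from -0.48 to 0.43, Cideb from -0.0557 to 0.0817 and Plin5 from -0.0656 to 0.54.

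With libraries above 0.1 RPKM of Adipoq left out, added after seeing the data, 608 genes were higher and 299 lower after T3, with 1 member higher and 1 lower and Cidec at -0.27. In L-NCOR1ΔID 15 were higher and 12 lower, with Plin4 at -0.14, Plin5 at -0.0235, Cidec at -0.57 and Cd36 at -0.30. Against L-NCOR1ΔID 551 were higher and 254 lower, with 1 member lower (G0s2), Plin4 at 0.46, Cideb at -0.13, Cidec at 0.30 and Fabp1 at -0.0471. This cut removed L-NCOR1ΔID replicates 1 and 2, the highest mutant libraries for Plin4, Plin5, Cidec and Cd36. The cause of the changes under this cut was not tested, beyond the smaller number of libraries.

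The replicate numbers gave no clear sign of pairing, as same-numbered libraries correlated by -0.123 to 0.166 in their deviations from the group means. Differently numbered libraries were not correlated across groups, so that these values cannot exclude pairing. A fit with the replicate number as a block gave 20 genes higher and 25 lower in L-NCOR1ΔID livers and 1152 and 490 for hyperthyroid WT against L-NCOR1ΔID, and it changed no count of members called. Summed over the 10 genes, with regions near both Plin4 and Plin5 counted for each, 64 acetylated regions lay within 50 kb, 119 within 100 kb and 184 within 200 kb of the starts, which were 58, 104 and 156 distinct regions. Genes near 1 read per library, such as Cidea, cannot be compared at this depth.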
